A study of Mus musculus with 15 samples.

Results

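Horizontal and amacrine cells are inhibitory interneurons of the retina, and 9 genes for transcription factors known from their formation were examined: Foxn4, Ptf1a, Prox1, Onecut1, Onecut2, Onecut3, Lhx1, Tfap2a and Tfap2b. They were chosen by symbol, each matched 1 entry of the expression table, and they make up 9 of its 23244 entries. The RNA-Seq data came from 15 libraries of SFEBq tissue, which forms when dissociated mouse embryonic stem cells are reaggregated in low-adhesion wells without serum. All groups came from 1 reporter line, EB5 Rx::GFP+/-, in which GFP marks cells that use the eye field gene Rx. Day 10 Rx::GFP+ tissue was cut from aggregates with forceps and collected at once, or cultured on as explants to Day 12 or Day 15. Day 12 +Wnt and Day 15 +Wnt explants were given CHIR99201, which inhibits GSK3 and so stimulates Wnt signalling, at 3 μM during the initial 24 h followed by 1 μM, and Day 12 +Fgf and Day 15 +Fgf explants received bFgf at 5 ng/ml with 10% FBS. FBS was listed for the +Fgf medium only, so its effect and that of bFgf cannot be told apart. Each of the 5 groups held 3 biological replicates, with no separate ES cell line among them, so p-values measure the spread between cultures of this line.

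In the retina, progenitors that turn on the forkhead factor Foxn4 can go on to express the bHLH factor Ptf1a, and both genes are needed for horizontal cells and for most amacrine cells. Onecut factors and Prox1 act in horizontal cell precursors, Lhx1 acts in horizontal cells as they mature and settle, and the AP-2 factors Tfap2a and Tfap2b are used in amacrine and horizontal cells after they leave the cell cycle. Outside the eye, the same factors serve other tissues, Ptf1a in the pancreas and hindbrain, Prox1 in lymphatic vessels and lens, Lhx1 in forebrain, hindbrain and kidney, and AP-2 factors in neural crest and surface ectoderm.

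Sequences before the gene starts are given for Foxn4, Ptf1a and Onecut1, which were highest in Day 15 +Fgf tissue, and for Lhx1, which was lower in Day 15 +Fgf than in Day 15 +Wnt tissue. They are RefSeq sequences of GRCm38.p6, written 5′ to 3′ on the strand of the gene, and stop before the earliest base that GENCODE counts as an exon. Capitals mark a match to a motif searched on both strands. The windows are chr5:114273808-114274011 (minus strand) for Foxn4, chr2:19445413-19445662 (plus strand) for Ptf1a, chr9:74861671-74861920 (plus strand) for Onecut1 and chr11:84525536-84525784 (minus strand) for Lhx1.
Foxn4: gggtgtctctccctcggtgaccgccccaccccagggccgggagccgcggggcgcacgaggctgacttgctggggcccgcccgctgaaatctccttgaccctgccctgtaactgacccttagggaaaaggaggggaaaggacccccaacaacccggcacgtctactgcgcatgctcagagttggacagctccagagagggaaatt
Ptf1a: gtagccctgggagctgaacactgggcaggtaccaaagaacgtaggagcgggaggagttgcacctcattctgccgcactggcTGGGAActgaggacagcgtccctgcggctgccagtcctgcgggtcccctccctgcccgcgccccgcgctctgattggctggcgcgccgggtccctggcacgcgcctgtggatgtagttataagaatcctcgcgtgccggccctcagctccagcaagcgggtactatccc
Onecut1: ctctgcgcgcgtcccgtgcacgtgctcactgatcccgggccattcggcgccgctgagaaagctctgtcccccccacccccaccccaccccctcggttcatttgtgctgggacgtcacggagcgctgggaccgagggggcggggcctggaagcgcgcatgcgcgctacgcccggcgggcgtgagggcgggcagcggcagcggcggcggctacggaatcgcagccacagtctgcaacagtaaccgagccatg
Lhx1: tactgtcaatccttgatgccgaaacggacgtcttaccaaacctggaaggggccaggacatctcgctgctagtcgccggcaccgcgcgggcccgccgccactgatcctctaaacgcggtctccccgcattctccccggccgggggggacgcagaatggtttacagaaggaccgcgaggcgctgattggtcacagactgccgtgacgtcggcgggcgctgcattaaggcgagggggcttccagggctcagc
The 250 bases before the start were searched for CACCTG, a site of bHLH factors, and for its variant CAGCTG, for TGGGAA, a site of Rbpj, for ATCGAT, a site of Onecut factors, and its variant ATCAAT, for GCCNNNGGC, a site of AP-2 factors, and for TAATTA, a site of homeodomain factors. The Ptf1a window held TGGGAA from base -169 to -164, counted back from the start, and the windows of Foxn4, Onecut1, Lhx1 and Tfap2b held none of the letters searched. Prox1 and Tfap2a have 2 windows each, and 1 window of each gene held a match, TTCCCA, the other strand of TGGGAA, from -240 to -235 for Prox1, and TAATTA from -32 to -27 with TGGGAA from -13 to -8 for Tfap2a. Among all 32851 promoters, 21.6% held TGGGAA, 17.2% CACCTG, 13.7% GCCNNNGGC, 13.0% CAGCTG, 6.7% ATCAAT, 4.8% TAATTA and 0.7% ATCGAT. The matches are therefore a description of letters that many promoters share.

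A library held 12556998 to 16175450 recovered reads (median 15073047), and a single read stood for 0.0620 to 0.0764 CPM, the normalized unit of the table. Markers of the labelled identities differed between +Fgf and +Wnt tissue at Day 15. At Day 15, Six6, an eye field and neural retina gene, had a mean of 225 CPM with Fgf and of 1.59 CPM with Wnt stimulation, and Pmel, a pigment cell gene, had 112 and 3690 CPM, while Rpe65, a gene of mature pigment epithelium, was at or near 0 throughout. These are bulk samples, in which fewer cells of a type and less RNA per cell cannot be told apart.

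**Figure D1:**
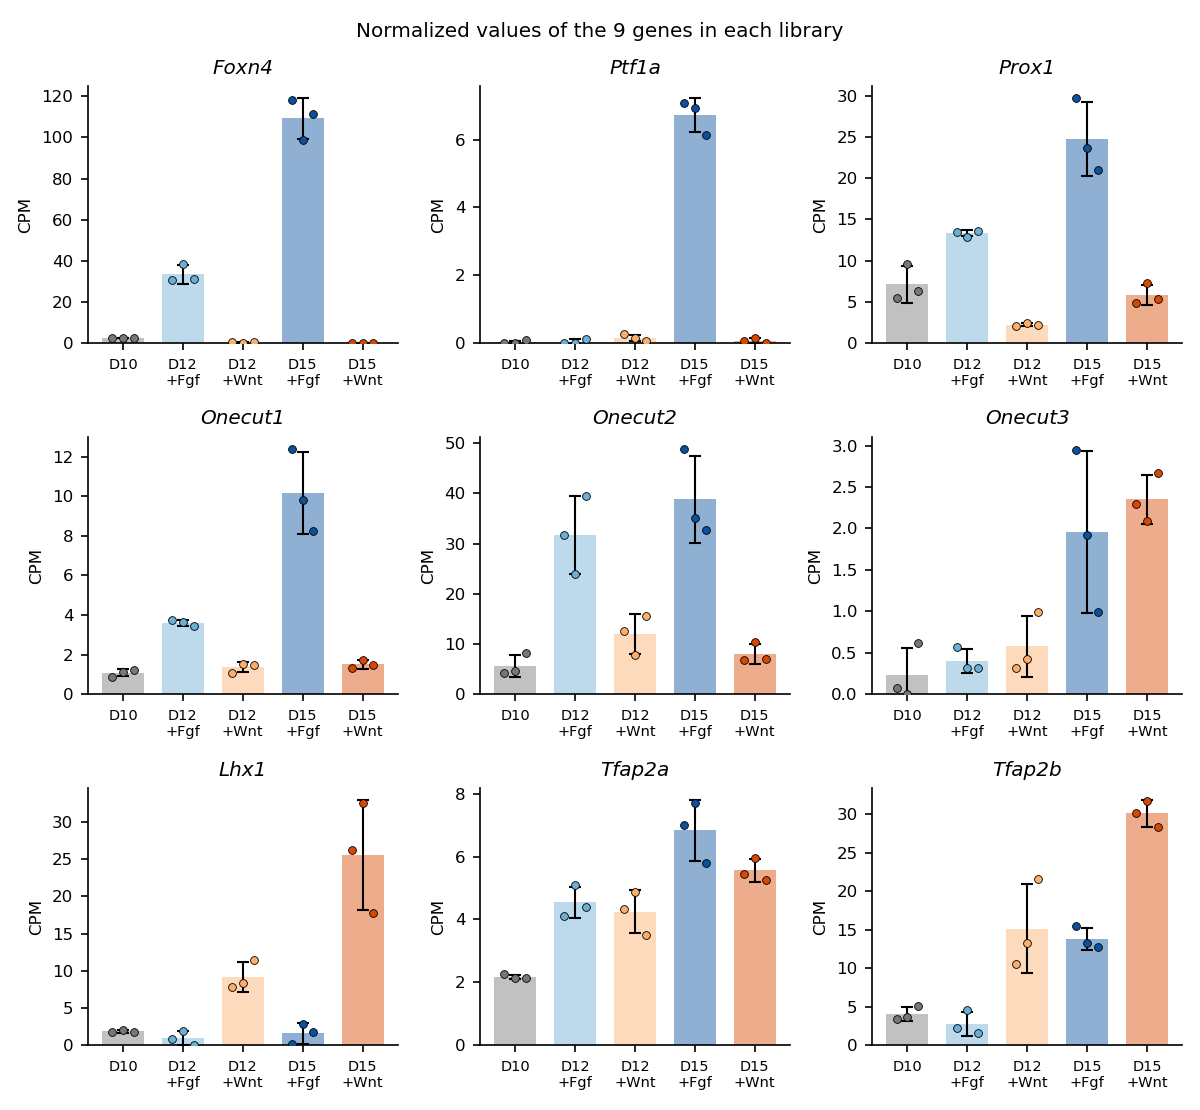
Normalized value in CPM (linear axes from 0, a scale of its own for each gene) of the 9 genes in Day 10 Rx::GFP+ (D10), Day 12 (D12) and Day 15 (D15) tissue. Points are libraries, bars are means and error bars are SD (n = 3). Foxn4, Ptf1a, Prox1, Onecut1 and Onecut2 had their highest mean in Day 15 +Fgf, and Lhx1 and Tfap2b in Day 15 +Wnt tissue.

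The comparisons set Day 12 against Day 10 tissue, Day 15 against Day 12 tissue, and tissues of equal age against each other. No unstimulated tissue of Day 12 or Day 15 was among the groups. In changes between days, the effect of a stimulation and that of time in culture therefore cannot be told apart. limma tested log2(value + 0.3) of 13845 genes, with Benjamini-Hochberg adjusted p under 0.05 as the threshold. After Fgf stimulation (Day 12 +Fgf against Day 10), 5 of the 9 genes rose and none fell, where 27.9% of all tested genes rose and 27.8% fell. After Wnt stimulation (Day 12 +Wnt against Day 10), 4 rose and 2 fell, against 30.6% and 29.6% of all genes. From Day 12 to Day 15, 7 rose and none fell in +Fgf tissue (27.2% and 29.9% of all genes), and 5 rose and 1 fell in +Wnt tissue (32.5% and 35.5%). Between tissues of the same day, 4 genes were higher and 2 lower in +Fgf at Day 12 (26.3% and 25.2% of all genes), and 5 were higher and 2 lower at Day 15 (38.0% and 30.6%). The Day 12 to Day 15 change was more positive in +Fgf than in +Wnt tissue for 4 genes and less so for none (27.0% and 20.9% of all genes). Ptf1a, which reached the minimum for testing through Day 15 +Fgf alone, is among the 7, 5 and 4 genes counted for comparisons with that group. Onecut3, which reached it through Day 15 libraries alone, is among the 7 and 5 genes that rose from Day 12 to Day 15. Both genes are part of the medians that follow. The median log2 difference of the 9 genes was 1.40 from Day 12 to Day 15 in +Fgf tissue and 0.38 in +Wnt tissue, where the medians of all genes were -0.02 in both. Several comparisons share libraries, the Day 12 groups most often, so these counts are not independent of each other.

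Foxn4, which makes progenitors competent for amacrine and horizontal fates, had the widest span of the 9 genes. The Day 10 libraries had 2.45, 2.47 and 2.22 CPM, the Day 12 +Fgf libraries 30.5, 38.5 and 31.0 CPM, and the Day 15 +Fgf libraries 118, 98.7 and 111 CPM. In +Wnt tissue it fell to 0.252, 0.209 and 0.265 CPM at Day 12 and stood at 0.0620, 0.0746 and 0.140 CPM at Day 15, the latter from 1, 1 and 2 reads. No 2 groups overlapped, in the order Day 15 +Fgf, Day 12 +Fgf, Day 10, Day 12 +Wnt, Day 15 +Wnt. Foxn4 rose by 3.64 (SE 0.14, adjusted p = 2.4e-11) on the log2 scale after Fgf stimulation, a 14.0-fold rise of the mean, and fell by 2.31 (SE 0.14, adjusted p = 1.5e-09) after Wnt stimulation. It rose by a further 1.71 (SE 0.14, adjusted p = 3.5e-08) from Day 12 to Day 15 in +Fgf tissue. At Day 12 the ratio of summed reads, +Fgf to +Wnt and scaled to the library totals, was 137.5 (95% interval 76.6 to 276), and at Day 15 it was 1194 (466 to 4385), with 4612 reads against 4. These intervals cover counting error only. The fall from Day 12 to Day 15 in +Wnt tissue passed in limma (log2 difference -0.47, SE 0.14, adjusted p = 0.0072), but it rests on 11 and 4 summed reads, a ratio of 0.377 with an interval of 0.0875 to 1.27. That call was lost with edgeR (adjusted p = 0.12) and DESeq2 (adjusted p = 0.15) on recovered reads, with a pseudocount of 1 and with only the groups compared in the fit.

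Ptf1a, which commits precursors to the horizontal and amacrine fates, had more than a few reads in Day 15 +Fgf tissue only. Its libraries there held 96, 101 and 87 reads, or 7.08, 6.94 and 6.15 CPM (mean 6.72 ± 0.50 SD, n = 3). The other 12 libraries held between 0 and 4 reads, with 0, 0 and 1 at Day 10, 0, 0 and 2 in Day 12 +Fgf, 4, 2 and 1 in Day 12 +Wnt and 1, 2 and 0 in Day 15 +Wnt. The 4 low groups overlapped one another and none reached the Day 15 +Fgf libraries. The ratio of summed reads was 158 (interval 43.4 to 1314) for Day 15 against Day 12 +Fgf, with 284 reads against 2, and 98.1 (33.2 to 478) for Day 15 +Fgf against Day 15 +Wnt, with 284 against 3. Ptf1a reached the 1 CPM minimum in Day 15 +Fgf libraries only, so it had to differ in these comparisons, and its log2 differences of 4.38 and 4.26 (SE 0.26 for both) are a description. Ptf1a shares 609 exon bases with Ptf1aos on the opposite strand, and without a stated strand setting their reads cannot be told apart.

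Partners of Ptf1a and genes known to lie downstream of Foxn4 or Ptf1a were followed in a list of 11 genes, of which 9 passed the minimum. From Day 12 to Day 15 in +Fgf tissue, 7 of the 9 rose and 2 fell, where 27.2% and 29.9% of all genes did, with a median log2 difference of 1.94 against -0.02 for all genes. In +Wnt tissue none rose and 5 fell (32.5% and 35.5% of all genes), with a median of -0.40 against -0.02. All 9 had a more positive change in +Fgf than in +Wnt tissue (27.0% of all genes, median 2.33 against 0.06). For Tcf3 and Tcf12 it was a smaller fall (-0.42 against -0.81, and -0.19 against -0.595). At Day 12, 3 of the 9 were higher and 2 lower in +Fgf than in +Wnt tissue (26.3% and 25.2% of all genes). At Day 15, 8 of 9 were higher in +Fgf tissue (38.0% of all genes). Prdm13, a zinc finger gene downstream of Ptf1a in amacrine cells, ranged from 10.9 to 17.0 CPM in Day 15 +Fgf libraries, where the other groups had 0 to 0.447 CPM. It reached the minimum in Day 15 +Fgf libraries only, so it had to differ there and its part in the counts above is a description. Dll4, a Notch ligand that Foxn4 activates, was already at 13.3 ± 2.0 CPM (SD, n = 3) in +Fgf tissue of Day 12 and reached 51.7 ± 3.8 CPM by Day 15, when the +Wnt tissue had 1.60 ± 0.073 CPM. Neurod4, a bHLH gene of amacrine and other retinal neurons, went from 1.25 to 125 CPM between the +Fgf days (log2 difference 6.41, SE 0.25, adjusted p = 1.2e-11). At Day 12 Neurod4 was lower in +Fgf than in +Wnt tissue (-1.87, SE 0.25, adjusted p = 1.0e-05). Rorb, a nuclear receptor that acts with Foxn4 upstream of Ptf1a, was at 225 ± 25 CPM with Fgf against 12.7 ± 1.4 CPM with Wnt stimulation at Day 15. Among the DNA-binding partners of Ptf1a, Rbpj was 1.02 (SE 0.06, adjusted p = 4.4e-10) higher in +Fgf tissue at Day 15. The E-protein genes Tcf3 and Tcf12 were 0.47 and 0.40 higher in the same comparison, and both fell from Day 12 to Day 15 under either stimulation, although with RNA integrity as a covariate the fall of Tcf12 in +Fgf tissue was lost (-0.04, adjusted p = 0.77). The pancreatic form Rbpjl was at 0 in 4 groups and at 0.0207 CPM in Day 15 +Wnt tissue.

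**Figure D2:**
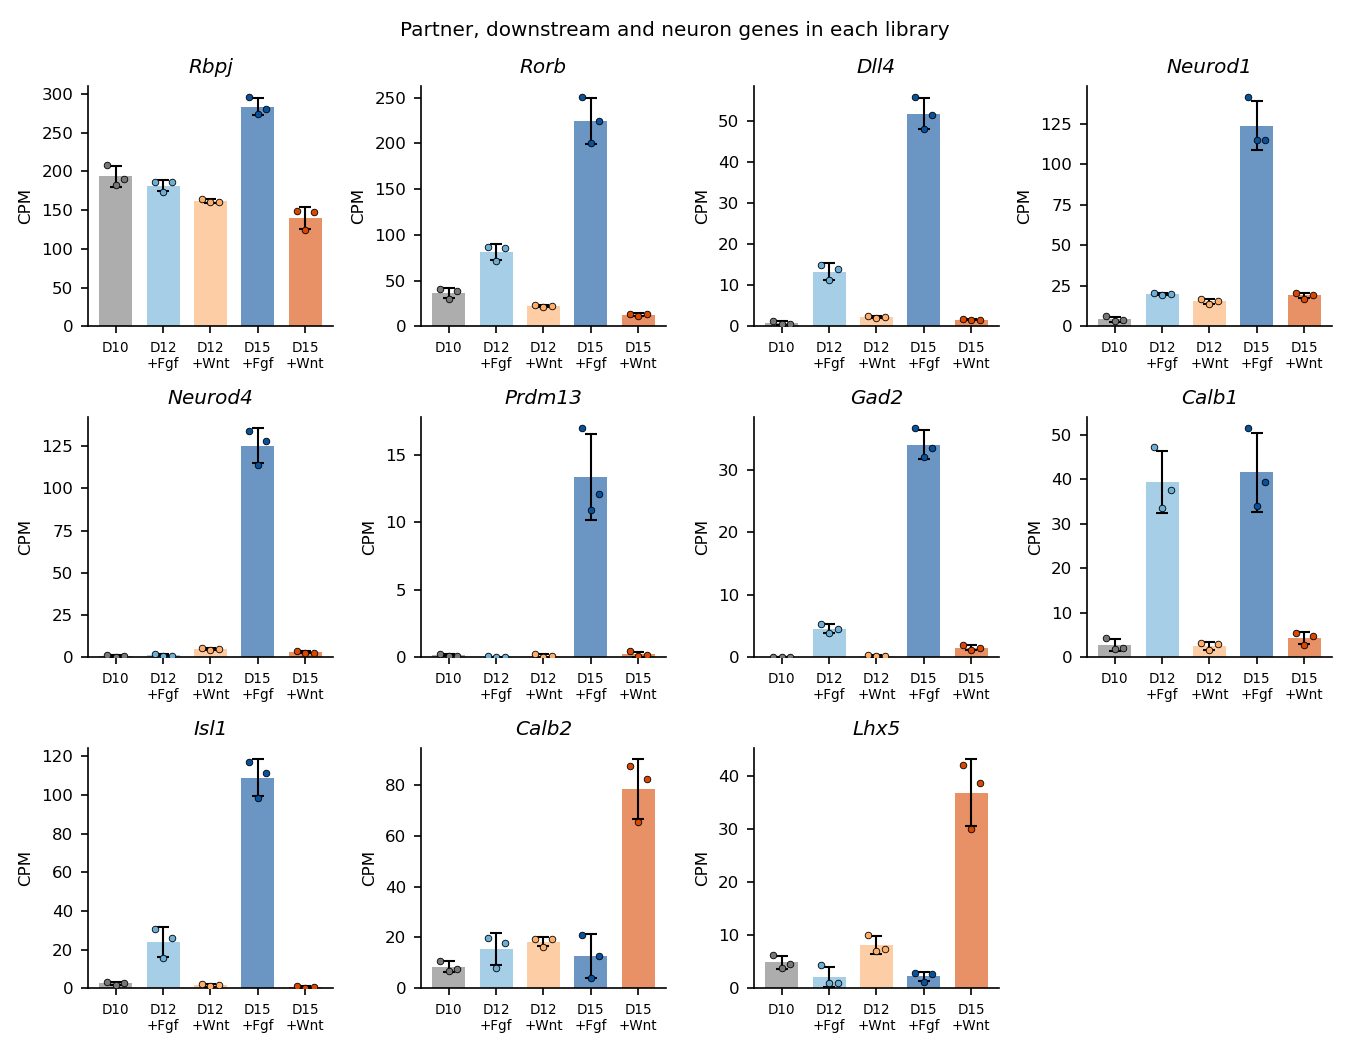
Normalized value in CPM (linear axes from 0) of 11 genes named by rule from the lists, in Day 10 (D10), Day 12 (D12) and Day 15 (D15) tissue. Bars are means, error bars SD (n = 3) and points the 3 libraries. Rbpj, Rorb, Dll4, Neurod1, Neurod4, Prdm13, Gad2 and Isl1 had their highest mean in Day 15 +Fgf, Calb1 stood near 40 CPM in both +Fgf groups (39.4 and 41.6), and Calb2 and Lhx5 were highest in Day 15 +Wnt tissue.

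Prox1, a homeodomain gene that drives precursors out of the cycle and into the horizontal fate, was at 5.45, 9.63 and 6.27 CPM at Day 10. It rose to 13.5, 12.9 and 13.5 CPM in Day 12 +Fgf (log2 difference 0.92, SE 0.19, adjusted p = 0.00053) and to 29.7, 23.6 and 21.0 CPM in Day 15 +Fgf (0.87 more, SE 0.19, adjusted p = 0.00079). After Wnt stimulation it fell by 1.51 (SE 0.19, adjusted p = 3.3e-06), to 2.08, 2.44 and 2.19 CPM, and then rose by 1.26 (SE 0.19, adjusted p = 1.3e-05), to 4.90, 7.23 and 5.40 CPM at Day 15. The Day 10 and Day 15 +Wnt ranges overlapped, and other neighbours in the order of the groups did not. Prox1 was thus 2.43 and 2.03 (SE 0.19 for both) higher in +Fgf than in +Wnt tissue at Day 12 and Day 15, and the change between the days was not shown to differ between the stimulations (-0.40, adjusted p = 0.23). Prox1 shares 133 exon bases with Prox1os on the opposite strand. The endothelial markers Lyve1 and Cdh5 had means of at most 0.117 and 0.34 CPM. Kdr, which endothelium and retinal progenitors both use, moved with Prox1 (at Day 15, 248 CPM with Fgf and 18.4 CPM with Wnt stimulation), and Pecam1 went the other way (0.519 and 3.52 CPM). Of the 5 endothelial genes 3 passed the minimum, with 1 higher and 1 lower in +Fgf tissue at Day 15 (38.0% and 30.6% of all genes). The summed level of the 5 at Day 15 was 216 to 267 CPM in +Fgf and 18.3 to 25.6 CPM in +Wnt libraries. At Day 12 it was 100.4 to 172 and 5.60 to 9.4 CPM. Their part in the result for Prox1 was not tested.

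The 3 Onecut genes, whose products act in horizontal and ganglion cell precursors, had separate courses. Onecut1 was at 0.886, 1.14 and 1.22 CPM at Day 10, at 3.74, 3.63 and 3.45 CPM in Day 12 +Fgf and at 12.4, 9.82 and 8.27 CPM in Day 15 +Fgf. It rose by 1.51 (SE 0.19, adjusted p = 4.2e-06) and then by 1.40 (SE 0.19, adjusted p = 7.1e-06). The +Wnt groups, at 1.35 ± 0.25 CPM (Day 12) and 1.5 ± 0.21 CPM (Day 15; SD, n = 3), overlapped each other, and neither +Wnt change passed (adjusted p = 0.25 and 0.56). Onecut1 shares 2171 exon bases with the lincRNA Gm20649 on the same strand, so part of its reads could belong to either. Onecut2 was at 4.22, 4.55 and 8.18 CPM at Day 10 and came up early in +Fgf tissue, with 31.8, 24.0 and 39.5 CPM at Day 12 and 48.8, 35.1 and 32.6 CPM at Day 15, groups that overlapped. The early step passed (log2 difference 2.46, SE 0.27, adjusted p = 1.3e-06) and the later step did not (0.30, adjusted p = 0.37). Onecut2 also rose after Wnt stimulation, to 12.5, 7.73 and 15.6 CPM (1.05, SE 0.27, adjusted p = 0.0032), although these libraries overlapped those of Day 10. Its later step in +Wnt tissue, to 6.70, 10.4 and 7.01 CPM, did not pass (-0.53, adjusted p = 0.094) with all libraries. Without Day 12 +Wnt replicate 2 it was -0.81 (adjusted p = 0.016), and without Day 15 +Wnt replicate 2 it was -0.72 (adjusted p = 0.042).

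Onecut3 was the lowest of the family, with 0 to 15 reads in every library of Day 10 and Day 12. It rose to 2.95, 1.92 and 0.989 CPM in Day 15 +Fgf (log2 difference from Day 12 1.60, SE 0.40) and to 2.29, 2.09 and 2.67 CPM in Day 15 +Wnt tissue (1.67, SE 0.40). Onecut3 reached the 1 CPM minimum in Day 15 libraries only, so these rises were favoured in advance and are a description. The 2 Day 15 groups overlapped and their difference did not pass (-0.33, SE 0.40, adjusted p = 0.49), in contrast to Onecut1 (2.53, SE 0.19, adjusted p = 3.2e-09) and Onecut2 (2.24, SE 0.27, adjusted p = 1.5e-06). Differences between the genes themselves were not tested. The steps from Day 10 did not pass with all libraries, and both passed without Day 10 replicate 3, which held 8 of the 9 Day 10 reads, at 1.06 (adjusted p = 0.028) for +Fgf and 1.32 (adjusted p = 0.0078) for +Wnt tissue.

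Lhx1, a LIM homeodomain gene of horizontal cells, was lower in +Fgf than in +Wnt tissue, where Foxn4, Prox1, Onecut1 and Onecut2 were higher. It was at 1.70, 2.07 and 1.76 CPM at Day 10, rose to 7.80, 8.28 and 11.4 CPM in Day 12 +Wnt (log2 difference 2.13, SE 0.60, adjusted p = 0.0056), and stood at 26.3, 32.5 and 17.8 CPM in Day 15 +Wnt tissue. The later step was 1.42 (SE 0.60, adjusted p = 0.044), a 2.78-fold rise of the mean between groups that did not overlap, and leaving out any of 9 single libraries took the adjusted p past 0.05 (log2 difference 1.23 to 1.66 over all libraries left out). A pseudocount of 0.05, no filter, quantile normalization, moderation without a trend and DESeq2 did so as well. In +Fgf tissue the libraries of a group differed widely, with 12, 30 and 1 reads at Day 12 and 2, 42 and 24 reads at Day 15. Lhx1 was lower in +Fgf than in +Wnt tissue at both days, by -3.30 (SE 0.60, adjusted p = 2.0e-04) at Day 12 and -4.15 (SE 0.60, adjusted p = 1.1e-05) at Day 15, and the groups did not overlap. The step from Day 10 to Day 12 +Fgf did not pass (-1.17, adjusted p = 0.11). It was -1.78 (adjusted p = 0.019) without Day 12 +Fgf replicate 2 and -0.48 without replicate 3, and it passed with adjusted p = 0.032 without Day 15 +Fgf replicate 1, which only changes the estimate of the spread. From Day 12 to Day 15 in +Fgf tissue the difference of 0.58 (adjusted p = 0.43) became -0.11 without Day 12 +Fgf replicate 3, -0.01 without Day 15 +Fgf replicate 2 and 1.41 (adjusted p = 0.023) without Day 15 +Fgf replicate 1, so no direction is given.

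Genes of other tissues that use Lhx1 were set beside it. Lhx5, its close paralog in forebrain and hindbrain neurons and in the list of hindbrain, cerebellar and spinal inhibitory neuron genes, had 36.9 ± 6.2 CPM with Wnt and 2.25 ± 0.88 CPM with Fgf stimulation at Day 15 (log2 difference -3.92, SE 0.39, adjusted p = 1.3e-07). Of that list 5 of 9 genes passed the minimum, 4 of them higher and 1 lower in +Fgf tissue at Day 12, and 3 higher and 1 lower at Day 15 (median log2 difference 2.26 and 2.43). Of all genes, 26.3% were higher and 25.2% lower at Day 12, and 38.0% and 30.6% at Day 15 (median -0.002 and 0.05). Lhx5 was thus lower in +Fgf tissue, as Lhx1 was, and most of the list was not. Its summed level at Day 12 was 14.7 to 21.1 CPM in the +Wnt libraries and 31.1 to 65.2 CPM in the +Fgf libraries, and at Day 15 it was 33.4 to 45.9 CPM in the +Wnt libraries and 44.2 to 51.4 CPM in the +Fgf libraries. Lbx1, Hoxb4, Hoxa5 and Gsx1, which mark hindbrain and spinal cord, had means of at most 0.642 CPM in any group. The LIM cofactor Ldb1 was 0.29 (SE 0.04, adjusted p = 1.1e-05) higher on the log2 scale in +Fgf tissue at Day 15 (226 and 185 CPM). Ldb2, another LIM cofactor gene, was lower in +Fgf tissue at Day 12 (-0.46, adjusted p = 0.0057) and at Day 15 (-0.525, adjusted p = 0.0014), as Lhx1 was. Of the 8 LIM cofactor and Onecut-linked precursor genes, 2 were higher and 5 lower in +Fgf tissue at Day 12. At Day 15, 6 were higher and 2 lower, and the shares of all genes are those given above. The part of these genes in the result for Lhx1 was not tested.

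**Figure D3:**
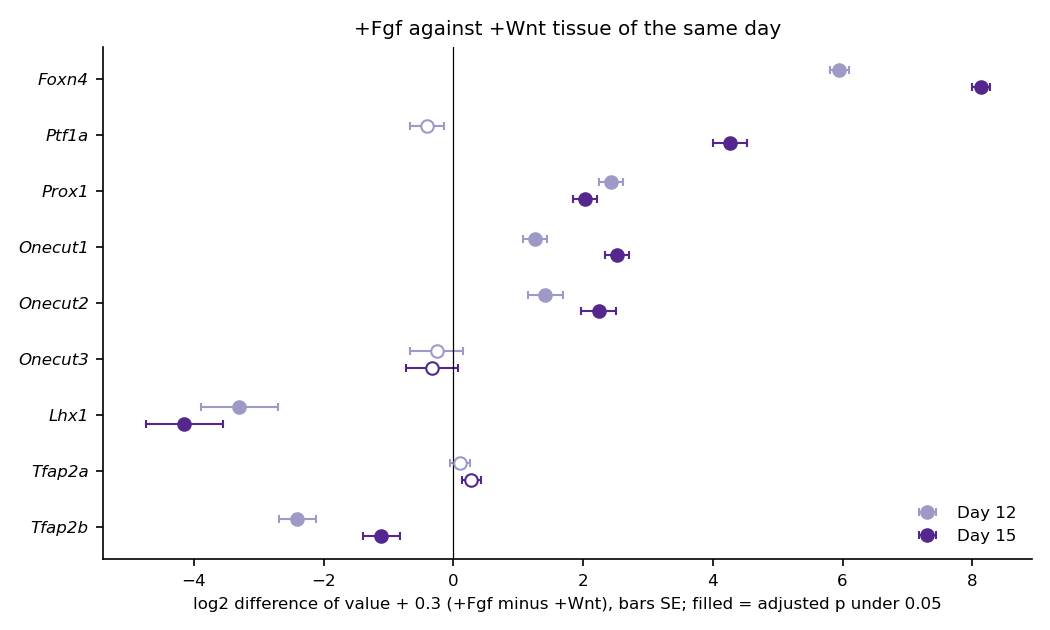
Difference between +Fgf and +Wnt tissue on the log2(value + 0.3) scale at Day 12 (light) and Day 15 (dark), with SE as bars. Filled points have an adjusted p under 0.05 in limma. Foxn4, Prox1, Onecut1 and Onecut2 lie to the right at both days, Ptf1a at Day 15, and Lhx1 and Tfap2b to the left at both days.

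The AP-2 genes Tfap2a and Tfap2b overlap in function in amacrine and horizontal cells. Tfap2a rose after either stimulation, from 2.25, 2.14 and 2.14 CPM at Day 10 to 4.12, 5.10 and 4.41 CPM in Day 12 +Fgf (log2 difference 0.96, SE 0.15, adjusted p = 4.8e-05) and to 4.34, 4.87 and 3.51 CPM in Day 12 +Wnt tissue (0.86, SE 0.15, adjusted p = 0.00011). It stood at 7.0, 7.69 and 5.79 CPM in Day 15 +Fgf (0.55 more, SE 0.15, adjusted p = 0.0046) and at 5.46, 5.97 and 5.26 CPM in Day 15 +Wnt tissue (0.38 more, SE 0.15, adjusted p = 0.034). The second +Wnt step turned to -0.24 with quantile normalization and was lost without Day 12 +Wnt replicate 1 or 3 or Day 15 +Wnt replicate 1 or 2 (0.26 to 0.40), with no filter and with DESeq2, and the second +Fgf step was lost with quantile normalization (0.28, adjusted p = 0.13). The stimulations overlapped at both days, with differences of 0.10 (SE 0.15, adjusted p = 0.61) and 0.28 (SE 0.15, adjusted p = 0.11). Without Day 15 +Fgf replicate 3, the latter was 0.38 (adjusted p = 0.048). Tfap2a shares exon bases with Gm47061, Gm26688 and Gm47067 on the opposite strand.

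Tfap2b was higher in +Wnt tissue at both days. It was at 3.34, 3.68 and 5.04 CPM at Day 10, at 10.6, 13.2 and 21.6 CPM in Day 12 +Wnt and at 30.1, 31.8 and 28.3 CPM in Day 15 +Wnt tissue, steps of 1.79 (SE 0.28, adjusted p = 4.4e-05) and 1.04 (SE 0.28, adjusted p = 0.0037). In +Fgf tissue it was at 2.15, 4.52 and 1.53 CPM at Day 12, within reach of the Day 10 libraries (-0.61, adjusted p = 0.077), and it then rose by 2.34 (SE 0.28, adjusted p = 2.7e-06) to 15.4, 13.3 and 12.7 CPM. Without Day 12 +Fgf replicate 2, the step from Day 10 was -1.01 and passed (adjusted p = 0.0020). The log2 difference of +Fgf minus +Wnt tissue was -2.40 (SE 0.28, adjusted p = 2.1e-06) at Day 12 and -1.11 (SE 0.28, adjusted p = 0.0023) at Day 15. Day 15 +Fgf overlapped Day 12 +Wnt tissue.

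Markers of other AP-2 tissues were set beside these values. The neural crest genes Sox10 and Foxd3 had means of at most 1.04 and 0.234 CPM, and the surface ectoderm genes Trp63, Krt5 and Krt14 of at most 0.0959 CPM. Of the surface ectoderm list 2 of 6 genes passed the minimum, Epcam and Grhl3, and both moved with Tfap2b at Day 12. They rose after Wnt stimulation, by 1.46 and 1.17 (30.6% of all genes rose), and were lower in +Fgf than in +Wnt tissue, with log2 differences of -0.73 and -2.58 (25.2% of all genes were lower). The summed level of the list was 8.18 to 10.5 CPM at Day 10, 20.1 to 24.2 CPM in Day 12 +Wnt and 6.07 to 9.94 CPM in Day 12 +Fgf libraries. At Day 15 it was 11.3 to 12.6 CPM in the +Wnt libraries and 8.18 to 13.4 CPM in the +Fgf libraries. Of the neural crest list 4 of 6 passed. In +Fgf against +Wnt tissue, 2 were higher and 1 lower at Day 12 (26.3% and 25.2% of all genes), and 1 higher and 1 lower at Day 15 (38.0% and 30.6%). The lower gene was Pax3 at both days (log2 differences -2.083 and -2.625). Pax3 also rose after Wnt stimulation (1.06, adjusted p = 0.018 in limma), as Tfap2b did. From Day 12 to Day 15 in +Fgf tissue, Pax3 fell (-1.19, adjusted p = 0.0099 in limma) and Tfap2b rose (2.34). In +Wnt tissue the later change of Pax3 did not pass (-0.65, adjusted p = 0.12), and Tfap2b rose (1.04). The summed level of the crest list at Day 15 was 43.3 to 48.0 CPM in the +Wnt libraries and 63.2 to 87.8 CPM in the +Fgf libraries. The lens gene Foxe3 had means of at most 0.0637 CPM, and 4 of 7 lens genes passed, 2 higher and 2 lower in Day 15 +Fgf tissue (38.0% and 30.6% of all genes). The summed level of the lens list was 8.48 to 11.1 CPM in the Day 15 +Fgf and 21.2 to 27.2 CPM in the Day 15 +Wnt libraries. At Day 12 it was 4.88 to 6.20 CPM in the +Fgf and 7.38 to 9.4 CPM in the +Wnt libraries. The part of these markers in the AP-2 results was not tested.

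The interaction tested whether the change from Day 12 to Day 15 differed between the stimulations. It passed for Foxn4 (2.18, SE 0.20, adjusted p = 2.2e-07), Tfap2b (1.30, SE 0.40, adjusted p = 0.014) and Onecut1 (1.28, SE 0.26, adjusted p = 0.00075), each with the larger change in +Fgf tissue. The value for Ptf1a, 4.66 (SE 0.37), is a description, since the gene was tested only through its reads in Day 15 +Fgf tissue. Tfap2b rose in both tissues, by 2.34 in +Fgf and by 1.04 in +Wnt. Onecut2 (0.82, adjusted p = 0.087), Prox1 (-0.40, adjusted p = 0.23), Lhx1 (-0.85, adjusted p = 0.43), Tfap2a (0.18, adjusted p = 0.52) and Onecut3 (-0.07, adjusted p = 0.93) did not pass. For Onecut2 it passed without Day 12 +Wnt replicate 2 (1.10, adjusted p = 0.023) or Day 15 +Wnt replicate 2 (1.02, adjusted p = 0.047). RNA integrity also varied between the groups. It was lower in every Day 15 +Fgf than in every Day 12 +Fgf library, so as a covariate it overlaps with that step. With it as a covariate, 7 calls among all comparisons were lost. They were those of Lhx1 after Wnt stimulation, of Prox1, Onecut3 and Tfap2a from Day 12 to Day 15 in +Fgf tissue, of Tfap2b at Day 15, and of Onecut1 and Tfap2b in the interaction (adjusted p between 0.0659 and 0.792).

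**Figure D4:**
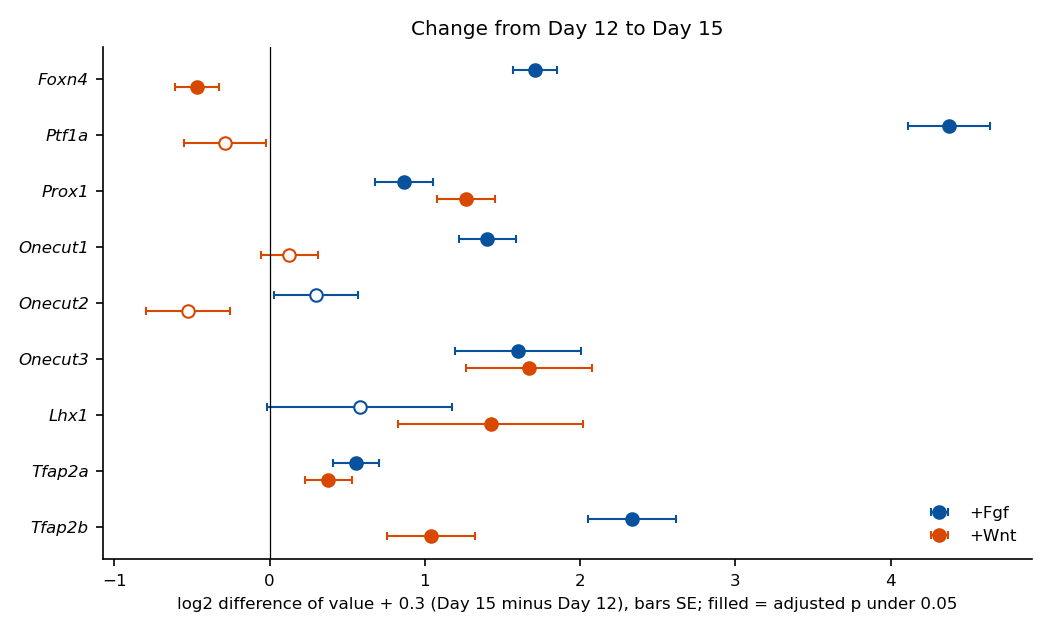
Change from Day 12 to Day 15 on the log2(value + 0.3) scale in +Fgf (blue) and +Wnt (orange) tissue, with SE as bars. Filled points have an adjusted p under 0.05 in limma. Ptf1a, Foxn4, Onecut1 and Tfap2b lie farther right in +Fgf tissue, and the Onecut3 changes of 1.60 and 1.67 coincide.

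Genes that amacrine and horizontal cells use as they differentiate were counted from 2 lists. Of 20 amacrine genes 17 passed the minimum, and 15 of the 17 rose from Day 12 to Day 15 in +Fgf tissue with none falling (27.2% and 29.9% of all genes, median 2.22 against -0.02). In +Wnt tissue 11 rose and 2 fell (32.5% and 35.5% of all genes, median 1.22 against -0.02). At Day 15, 5 of the 17 were higher and 7 lower in +Fgf than in +Wnt tissue, near the 38.0% and 30.6% of all genes. Isl1, a LIM homeodomain gene of cholinergic amacrine and ganglion cells, had 109 ± 9.5 CPM with Fgf and 0.644 ± 0.39 CPM with Wnt stimulation at Day 15. Gad2, an enzyme of GABA synthesis, had 34.0 ± 2.4 and 1.55 ± 0.42 CPM (log2 difference 4.23, SE 0.20, adjusted p = 1.5e-11). Calb2, a calcium-binding protein gene of amacrine, ganglion and many brain neurons, had 12.6 ± 8.6 and 78.3 ± 12 CPM (-2.88, SE 0.42, adjusted p = 1.2e-05), a call lost with RNA integrity as a covariate (-1.79, adjusted p = 0.058). The bHLH gene Neurod2 had 0.516, 17.9 and 22.8 CPM with Fgf, from lowest to highest, and 35.5 ± 8.3 CPM with Wnt stimulation (-2.33, SE 0.84, adjusted p = 0.021). Without Day 15 +Fgf replicate 1 the difference was -0.78 (adjusted p = 0.088), without Day 15 +Wnt replicate 3 it was -2.16 (adjusted p = 0.062), and with RNA integrity as a covariate it was 0.06. Chat, the acetylcholine synthesis gene of starburst amacrine cells, was at 0 in 4 groups, and Th, the dopamine synthesis gene, had means of at most 0.879 CPM.

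Of 6 horizontal cell genes 5 passed the minimum, and Gja10, a connexin gene of horizontal cells, had means of at most 0.163 CPM. From Day 12 to Day 15, 1 rose and 1 fell in +Fgf tissue (27.2% and 29.9% of all genes, median -0.02, as for all genes). In +Wnt tissue 2 rose and none fell (32.5% and 35.5% of all genes, median 0.47 against -0.02). At both days 2 of the 5 were higher and 3 lower in +Fgf than in +Wnt tissue (median -0.35 at Day 12 and -0.68 at Day 15). Of all genes, 26.3% were higher and 25.2% lower at Day 12, and 38.0% and 30.6% at Day 15. The 3 lower genes at Day 15 were Sall3 (-2.21, lost with RNA integrity as a covariate, adjusted p = 0.13), Megf11 (-2.0) and Slc4a3 (-0.68). Calb1, the calcium-binding protein gene most used to mark horizontal cells, rose by 3.75 (SE 0.30, adjusted p = 3.3e-08) by Day 12 in +Fgf tissue, to 39.4 ± 7.0 CPM, stood at 41.6 ± 8.9 CPM at Day 15, and was 3.22 (SE 0.30, adjusted p = 5.5e-08) higher there than in Day 15 +Wnt tissue. Megf10, a receptor gene that spaces horizontal cells, went from 1.69 to 29.0 CPM by Day 12 in +Fgf tissue and fell to 18.2 CPM by Day 15 (log2 difference -0.60, SE 0.20, adjusted p = 0.018), a call lost without Day 12 +Fgf replicate 3 (-0.32, adjusted p = 0.13) or Day 15 +Fgf replicate 3 (-0.56, adjusted p = 0.054) and with RNA integrity as a covariate (adjusted p = 0.24). Among 8 LIM cofactor and Onecut-linked precursor genes, all of which passed the minimum, 6 were higher and 2 lower in +Fgf tissue at Day 15 (38.0% and 30.6% of all genes), and Olig2, a bHLH gene of precursors that also use Onecut1, had 21.3 and 1.09 CPM (log2 difference 4.08, SE 0.42, adjusted p = 2.0e-07). Ganglion cell genes rose as well from Day 12 to Day 15 in +Fgf tissue (6 of 7, median 2.71), as did photoreceptor precursor genes (4 of 4, median 4.18), where 27.2% of all genes rose. In +Wnt tissue, 4 of the 7 ganglion cell genes rose and 1 fell (median 0.68). Of the photoreceptor precursor genes, 1 of 4 rose there (median 0.08), where 32.5% of all genes rose and 35.5% fell. Nrl, among these 4 photoreceptor precursor genes, had no reads in either Day 12 group. It reached the minimum in Day 15 +Fgf libraries only, so it had to rise there and its part in the +Fgf count is a description.

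Levels of the 9 genes can be set against each other only per length of exon. In Day 15 +Fgf tissue Foxn4 led with 32.4 ± 2.9 CPM per kb (SD, n = 3), followed by Ptf1a (4.46 ± 0.33), Prox1 (2.95 ± 0.53), Onecut1 (2.47 ± 0.51), Onecut2 (2.39 ± 0.54), Tfap2b (2.18 ± 0.22), Tfap2a (1.39 ± 0.20), Onecut3 (0.409 ± 0.21) and Lhx1 (0.387 ± 0.34). Neighbours in this order from Prox1 to Tfap2b, and Onecut3 and Lhx1, differed by less than their SD. In Day 15 +Wnt tissue Lhx1 led with 6.27 ± 1.8 CPM per kb and Tfap2b followed with 4.75 ± 0.27, less than the SD of Lhx1 apart, then Tfap2a with 1.13 ± 0.074 and Prox1 with 0.697 ± 0.15, while Ptf1a and Foxn4, at 0.0467 ± 0.050 and 0.0274 ± 0.012 from 3 and 4 summed reads, were lowest and differed by less than the SD of Ptf1a.

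The genes with the most similar course over the 15 libraries were named by Pearson r of log2(value + 0.3), which describes 5 groups of libraries that share their day and stimulation. They were Ankrd33b (0.987), Krt73 (0.987) and Prdm13 (0.983) for Ptf1a, and Nedd9 (0.992), Gm266 (0.991) and Tspan15 (0.988) for Foxn4. For Prox1 they were Kif3a, Efnb2 and Sema4d (0.972 to 0.980), for Onecut1 Chn1, Srebf2 and Gal (0.982 to 0.989), and for Onecut2 Rgs3, Spon2 and D930028M14Rik (0.955 to 0.962). For Onecut3 they were Kcne1l, Uchl1 and Darc (0.939 to 0.946), for Lhx1 Rassf10, Samd3 and Zcchc12 (0.969 to 0.974), for Tfap2a Cdkn2c, Vezt and Abcg1 (0.967 to 0.976), and for Tfap2b Slc17a6, Cdc42ep3 and Hid1 (0.975 to 0.980). Among the 9 genes themselves, Foxn4 was closest to Prox1 (0.90) and Onecut1 (0.88) and ran against Lhx1 (-0.81).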

How the data were processed

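The 15 mouse SFEBq libraries fall into 5 groups of 3 biological replicates by their labels. RNA was prepared with a stranded mRNA kit. Per the methods and the labels, the authors aligned paired-end reads to the mm10 genome using TopHat2 2.0.8b, counted fragments per gene of the UCSC transcriptome with Cuffdiff (Cufflinks 2.1.1), and normalized them with edgeR 3.2.4. The strand setting of the counting is not given in the sources used here. The deposited values are called CPM by the authors and are a normalized signal: columns sum to between 936418 and 1075448, as with TMM-scaled library sizes, and all non-zero values (100%, tolerance 0.01) are whole multiples of 1 read, so read numbers were recovered.

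Tests were run on the 13845 of 23244 entries that reached 1 CPM, scaled to the column sum, in 3 or more libraries. The deposited values are not counts, so the main test was limma 3.58.1 in R 4.3.3 on log2(value + 0.3), with 5 group means, a trend, and Benjamini-Hochberg adjustment within each comparison (two-sided, threshold 0.05). This scale understates changes of low genes. The 9 genes and all lists were chosen with earlier results of these data known. From a list at most 4 genes are named per comparison, those with the largest absolute log2 difference among called genes whose higher group had a mean of 10 CPM or more, plus direct partners or targets of the 9 genes. The 3 genes most similar to each are named too. One gene each of 2 lists is not reported here and was left out of their counts. The direct partners and targets are Rbpj, Rbpjl, Tcf3, Tcf12, Prdm13, Dll4 and Ldb1. Markers named for being at or near 0, Pecam1, Epcam, Grhl3, Pax3, Ldb2, Nrl, Sall3, Megf11 and Slc4a3 were chosen after their values were seen. Intervals of read ratios are exact (95%). Alternatives covered the pseudocount, filter, scaling, trend, RNA integrity, replicate block, the groups fitted, edgeR 4.0.16 and DESeq2 1.42.0 on recovered reads, and each library left out. The procedure was tested on simulated data. Positions come from GENCODE vM21 (GRCm38, also called mm10), promoter sequences from RefSeq, matched for 7 of the 9 genes and not shown for Onecut2 and Onecut3. Python 3.11.15 with pandas 2.3.3, NumPy 2.4.6, SciPy 1.17.1 and matplotlib 3.10.9 was used.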

Additional observations from a re-analysis of the deposited data

Results flagged for a closer look

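The change from Day 12 to Day 15 was compared between the stimulations by a test of the difference itself in limma, and 4 genes had an adjusted p under 0.05. On the log2 scale, +Fgf minus +Wnt, it was 4.66 (SE 0.37) for Ptf1a, 2.18 (SE 0.20) for Foxn4, 1.30 (SE 0.40) for Tfap2b and 1.28 (SE 0.26) for Onecut1. Ptf1a was tested only through its reads in Day 15 +Fgf tissue and had to differ, so its value is a description, and the adjusted p of the other 3 genes was between 2.2e-07 and 0.014. Foxn4 kept this call in all 28 alternatives run for it, whereas the calls of Tfap2b and Onecut1 were lost with RNA integrity as a covariate (adjusted p = 0.097 and 0.066). With 3 libraries per group, single libraries were not tested as outliers.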

How the results depend on the processing

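Of 63 tests of the 9 genes, 41 passed with the main settings, where between 6636 and 9505 of all 13845 genes passed per comparison. The 41 include the calls of Ptf1a and Onecut3 that are given above as a description. Numbers of genes called moved by more than 1.5 times in 6 cases. With a filter of 10 CPM, under which fewer of the genes are tested, 3 were called in place of 5 for Day 12 +Fgf against Day 10, 3 in place of 7 for Day 15 against Day 12 +Fgf, and 2 in place of 4 for the interaction. With RNA integrity as a covariate 4 were called in place of 7 for Day 15 against Day 12 +Fgf and 2 in place of 4 for the interaction, and with DESeq2 3 in place of 6 for Day 15 against Day 12 +Wnt. The causes of the latter 3 were not tested. Over all 13845 genes, calls in the same comparisons went from 7899 to 3591 and from 6636 to 3842 with RNA integrity as a covariate. With DESeq2 they went from 9417 to 8911. Quantile normalization turned the log2 difference of Day 15 against Day 12 +Wnt to -0.55 for Onecut1 and -0.24 for Tfap2a, of Day 15 +Fgf against +Wnt to 0.12 for Onecut3, and the interaction to 0.13 for Prox1 and 0.33 for Onecut3. RNA integrity as a covariate turned Tfap2a at Day 15 to -0.11, and the interaction to 0.15 for Lhx1 and -0.26 for Tfap2a. The Onecut3 interaction was 0.20 with edgeR and 0.22 with DESeq2. Leaving out single libraries turned 7 differences that had not passed, with ranges of -0.11 to 0.17 for Ptf1a in Day 12 +Fgf against Day 10, -0.11 to 1.41 for Lhx1 in Day 15 against Day 12 +Fgf, -0.0034 to 0.21 for Onecut1 in Day 15 against Day 12 +Wnt, -0.47 to 0.063 for Onecut3 and -0.022 to 0.20 for Tfap2a in Day 12 +Fgf against +Wnt, -0.64 to 0.026 for Onecut3 in Day 15 +Fgf against +Wnt, and -0.39 to 0.28 for Onecut3 in the interaction. The cause was not tested. With column totals in place of TMM scaling, Day 12 +Wnt against Day 10 gave 5164 genes higher and 3132 lower in place of 4236 and 4094.

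With a replicate block, every number of genes called was as in the main fit (5, 6, 7, 6, 6, 7 and 4 in the order of the comparisons above), and no call of the 9 genes changed. For same-numbered libraries, the correlation of their deviations from the group means was over 0.1 in 7 of 30 pairs (range -0.253 to 0.245, median -0.00804). Deviations within a group of 3 are tied to each other, so these values cannot decide whether same-numbered libraries shared a culture. Ptf1a outside Day 15 +Fgf, Foxn4 in +Wnt tissue and Onecut3 before Day 15 rest on a few reads per library, which limits the precision of their differences.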
